A study of Mus musculus with 6 samples.

Results

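Neurexins, neuroligins and contactin-associated proteins are cell adhesion molecules best known from synapses, and 9 of their genes were followed in the medial ganglionic eminence (MGE) of mouse embryos at embryonic day 12.5, before most synapses form there. The members, chosen by symbol from the 34745 genes of the deposited table, were Nrxn2, Nrxn3, Nlgn1, Nlgn2, Nlgn3, Cntnap2, Cntnap4, Cntn1 and Cntn2. The MGE is the ventral forebrain region where many cortical interneurons and pallidal neurons are born. RNA-seq was done on 3 wild type and 3 Sp9 null (Sp9-/-) libraries, the controls being wild type littermates, all of mixed C57BL/6J, 129S6 and CD1 background. Sp9 is a zinc finger transcription factor of that region, and no Cre line, transgene or treatment is named in the labels. Whether a library holds 1 embryo or several is not stated, so the tests weigh differences only against the spread of these libraries, part of which may be technical.

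Neurexins sit on the presynaptic membrane and bind neuroligins on the postsynaptic side, and both recruit scaffold proteins inside the cell. Each neurexin gene makes long alpha forms and short beta forms from separate promoters. Contactins are anchored to the outer membrane by a lipid and pair on axons with neurexin-like Cntnap proteins, as contactin-2 does with the Cntnap2 product, Caspr2. In the embryo contactin-2, also called TAG-1, is known from growing axons and young neurons.

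Library totals lay between 6826447 and 10979280 counts. Sp9 was at 189 to 247 CPM (counts per 1000000 counts of the library) in wild type and at 10.6 to 13.0 CPM in null libraries, matching the labels. Replicate 2 of both genotypes stood apart on the first principal component, which held 51.8% of the variance, so results are given with and without it. All 9 members passed the filter on low counts, and the lowest count of any member in any library was 18, so none was near the floor of 3 counts, which is 0.273 to 0.439 CPM. None of the 9 lies on chromosome 2, which carries Sp9.

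The 2 members at the extremes of the variation between libraries described below, Nlgn2 with the least loss in replicate 2 and Cntn1 with the greatest in the null genotype, are shown with the 250 bases upstream of a RefSeq start (GRCm38.p6). Capitals mark the GC box, the letters GGGCGG on either strand, a motif known to be bound by Sp family factors.
Nlgn2, chr11:69837785-69838034, minus strand: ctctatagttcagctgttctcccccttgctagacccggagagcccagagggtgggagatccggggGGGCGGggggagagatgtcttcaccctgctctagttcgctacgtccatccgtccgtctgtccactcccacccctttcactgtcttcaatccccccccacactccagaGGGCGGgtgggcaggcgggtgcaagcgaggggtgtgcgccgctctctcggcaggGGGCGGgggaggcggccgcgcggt
Cntn1, chr15:92050915-92051164, plus strand: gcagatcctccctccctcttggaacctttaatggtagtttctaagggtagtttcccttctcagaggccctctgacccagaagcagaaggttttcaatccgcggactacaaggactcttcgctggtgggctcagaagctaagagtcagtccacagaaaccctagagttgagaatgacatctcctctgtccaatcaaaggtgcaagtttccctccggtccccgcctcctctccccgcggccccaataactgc
The Nlgn2 window held 3 GC boxes and 67.6% G and C, and the Cntn1 window held 0 and 53.6%. The other Cntn1 starts, not shown, held 0 GC boxes and 32.8% and 43.6% G and C. Of all 32851 such windows in the RefSeq table, 32.7% held a GC box, and their median G and C content was 52.4%. The table had 12 starts for 6 of the members, and 2 of the 12 held a GC box, the other being a Cntnap2 start. These matches describe letters in a window and are not binding sites. Promoters of Nrxn2, Nlgn3 and Cntnap4 were not analysed here.

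Levels were compared between genes in FPKM, the deposited read count per kilobase of gene and per 1000000 reads. Nlgn2, the neuroligin of inhibitory synapses, was the highest member at 31.3 ± 4.47 FPKM (SD over the 6 libraries). Its lowest library, at 23.4 FPKM, lay above the highest library of every other member. Nrxn2 followed at 7.26 ± 2.104 FPKM and Nrxn3 at 5.54 ± 1.33 FPKM. Nrxn2 was above Nrxn3 in 6 of 6 libraries, although their ranges, 3.94 to 9.10 and 3.56 to 6.79 FPKM, overlapped. Cntnap2, at 2.73 ± 1.22 FPKM, was below Nrxn3 in all 6 libraries, again with overlapping ranges.

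The other 5 members lay near 1 FPKM or below, and each range overlapped that of its neighbour in the order. Nlgn3, which occurs at both excitatory and inhibitory synapses, was at 1.02 ± 0.271 FPKM. Cntn2 and Cntn1 were at 0.744 ± 0.308 and 0.724 ± 0.352 FPKM, and Cntn2 was the higher of them in 3 of 6 libraries. Cntnap4, at 0.605 ± 0.302 FPKM, and Nlgn1, the neuroligin of excitatory synapses, at 0.498 ± 0.163 FPKM, were lowest. Nlgn3 was above Nlgn1 in 6 of 6 libraries. The lengths behind the deposited FPKM exceeded the summed length of all annotated exons in GENCODE M21 for 9 of 9 members, for example 21012 against 13812 bases for Nrxn2. With the longest coding transcript as the length, ranks 1 to 4, 8 and 9 were the same, and Nlgn3 went from rank 5 to rank 7 behind Cntn2 and Cntn1.

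**Figure D1:**
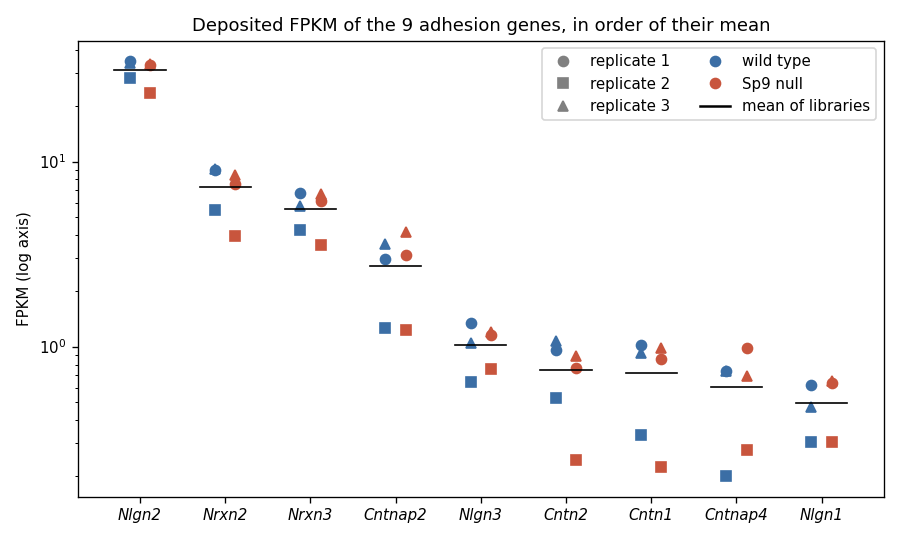
Deposited FPKM on a log axis for each member, ordered by the mean of 6 libraries (black line); blue points are wild type, red points Sp9 null, and the marker shape gives the replicate number. Nlgn2 stands above the rest at 31.3 FPKM, and the squares of replicate 2 are the lowest points of both genotypes for every member.

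The neuroligin pool was nearly all Nlgn2 in both genotypes. Nlgn2 made up 94.7%, 96.8% and 95.8% of the summed neuroligin FPKM of wild type replicates 1, 2 and 3, against 94.9%, 95.7% and 94.8% for null. Nlgn3 took 2.19% to 3.65% and Nlgn1 1.04% to 1.84% over the 6 libraries.

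Of the neurexin members Nrxn2 was above Nrxn3 in each library. The ratio of Nrxn2 to Nrxn3 FPKM was 1.32, 1.28 and 1.58 in wild type replicates 1, 2 and 3, and 1.24, 1.11 and 1.27 in null replicates. The lowest wild type ratio was just above the highest null ratio. This ratio was chosen after the values had been seen and was not tested. It depends on the gene lengths used, which are the same for both genotypes.

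**Figure D2:**
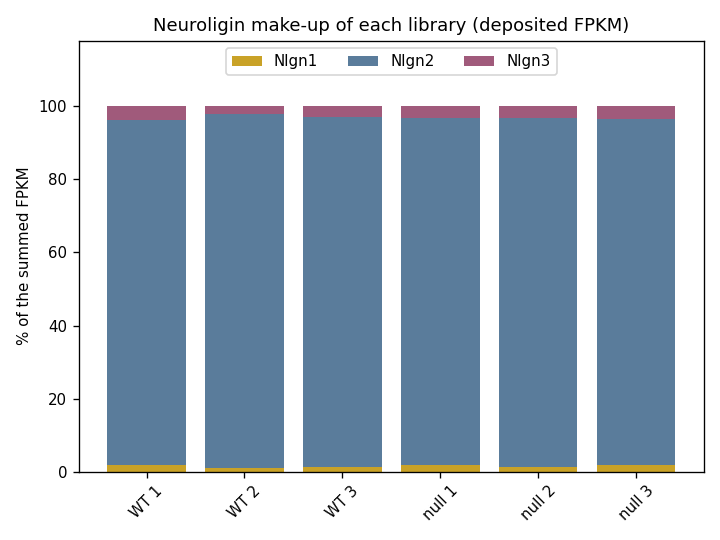
Stacked bars give the percent of the summed neuroligin FPKM that each of the 3 genes takes in each of the 6 libraries (WT, wild type). Nlgn2 fills 94.7% or more of every bar.

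The study asks which transcripts of the MGE depend on Sp9, and for these genes the genotype difference was small beside the spread between libraries. The edgeR quasi-likelihood test on counts, with genotype as its only term, called 0 of 9 members at an adjusted p under 0.05, against 0.147% of the 14929 genes tested. None reached an unadjusted p under 0.05 (5.91% of tested genes did), DESeq2 on genotype alone and limma on FPKM also called 0, and wild type and null CPM ranges overlapped for 9 of 9 (they were separate for 13.0% of all tested genes). Log2 fold changes are given throughout as null over wild type. They were negative for 5 and positive for 4 members, with a median of -0.02 against -0.005 over all tested genes.

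With the replicate number as a block in the model, which compares the libraries of like number, 1 of 9 members was called, against 4.00% of tested genes. That member was Nrxn2, which fell. The pairing by number was read from these same data, and numbers 1 and 3 were not told apart. The unadjusted p was under 0.05 for 2 of 9, Nrxn2 and Cntn2, against 17.2% of tested genes. Null was below wild type in all 3 numbered pairs for 3 members, Nrxn2, Nlgn2 and Cntn2 (22.6% of tested genes), and above it in all 3 for 0 members (15.7%).

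Nrxn2 (ENSMUSG00000033768, chromosome 19, 6418731 to 6544169, GRCm38) was at 188, 115 and 191 CPM in wild type and at 159, 82.8 and 178 CPM in null replicates 1, 2 and 3. Both replicates numbered 2 were the lowest, and null replicates 1 and 3 lay between wild type replicate 2 and the other wild type libraries. The means were 165 ± 43.3 and 140 ± 50.5 CPM (SD, n = 3 each), and the log2 fold change of -0.22 had an SE of 0.33 (adjusted p = 0.968, edgeR). With the block it was -0.24 with an SE of 0.07 (adjusted p = 0.0258, edgeR), a fall in all 3 pairs, by 0.24, 0.47 and 0.10 on the log2 scale. Without pair 2 the blocked edgeR value was -0.15 (adjusted p = 0.5004), and DESeq2 with the block gave -0.24 (adjusted p = 0.443). Without pair 1 or pair 3 edgeR still called it, at -0.24 (adjusted p = 0.0276) and -0.34 (adjusted p = 0.0417). The call therefore depended on the libraries and the tool used. Leaving out a pair also leaves fewer libraries, so the share of pair 2 itself cannot be told. The antisense gene Gm14964 lies within Nrxn2, at 6530711 to 6532011, and had 1564 counts over the 6 libraries against 8623 for Nrxn2. It fell too with the block, by 0.37 with an SE of 0.11 (adjusted p = 0.0445, edgeR). Because strand is not stated, a read from either gene could have been counted for the other.

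Nrxn3 (ENSMUSG00000066392, chromosome 12, 88722876 to 90334935) was measured at 150.0, 94.5 and 127 CPM in wild type and at 135, 78.5 and 148 CPM in null replicates. The groups overlapped throughout, and the fitted difference was -0.02 on the log2 scale with an SE of 0.27 (adjusted p = 0.997, edgeR). The blocked value was -0.04, with a 95% interval from -0.20 to 0.12. Its sign changed without pair 1 or pair 2. The unblocked interval, -0.68 to 0.63, was wider than the blocked one on both sides.

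Among the neuroligins, Nlgn2 (ENSMUSG00000051790, chromosome 11, 69823122 to 69837784) was the steadiest. Its wild type replicates were at 252, 205 and 248 CPM, and its null replicates at 239, 170 and 243 CPM. Null replicates 1 and 3 were below wild type replicates 1 and 3 by little, and null replicate 2 was the lowest library. Fitted by edgeR, the difference was -0.09 (SE 0.14) with a 95% interval from -0.43 to 0.24 and adjusted p = 0.968. With the block it was -0.10 (adjusted p = 0.394).

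Nlgn3, on the X chromosome (ENSMUSG00000031302, 101299168 to 101325963), had 14.7, 7.06 and 11.5 CPM in wild type and 12.7, 8.29 and 13.1 CPM in null replicates. Its log2 fold change of 0.06 had an SE of 0.29 (adjusted p = 0.997, edgeR). Nlgn1 (ENSMUSG00000063887, chromosome 3, 25426215 to 26332460) had 12.1, 5.96 and 9.18 CPM in wild type and 12.3, 5.92 and 12.7 CPM in null replicates, and differed by 0.20 on the log2 scale with an SE of 0.35 (adjusted p = 0.979, edgeR). In both genes replicate 2 was low in each genotype. The other 4 libraries were mixed in order for Nlgn3. For Nlgn1 null replicates 1 and 3 lay above wild type replicates 1 and 3, null replicate 1 only by little. Neither passed with the block, where adjusted p was 0.837 and 0.603.

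Cntn2 (ENSMUSG00000053024, chromosome 1, 132509427 to 132543256) had the largest genotype difference of the 9 in size. Wild type replicates 1, 2 and 3 had 19.0, 10.4 and 21.3 CPM, and the null replicates 15.2, 4.83 and 17.5 CPM. Null was lower within each number, most of all in number 2, by 0.32, 1.11 and 0.28 on the log2 scale. Without the block edgeR gave -0.43 (SE 0.50, adjusted p = 0.951), and with it -0.49 (SE 0.15, adjusted p = 0.0659), which missed the threshold. The blocked value was -0.57 without pair 1 (adjusted p = 0.0447), -0.28 without pair 2 (adjusted p = 0.548) and -0.65 without pair 3 (adjusted p = 0.176). Blocked DESeq2 gave -0.51 (adjusted p = 0.628).

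Cntn1 (ENSMUSG00000055022, chromosome 15, 92051165 to 92341967) had 12.9, 4.21 and 11.7 CPM in wild type and 10.8, 2.82 and 12.5 CPM in null replicates. The edgeR difference was -0.13 (SE 0.63, adjusted p = 0.997), or -0.16 (adjusted p = 0.709) with the block. The 31 counts in null replicate 2 give a 95% exact Poisson interval of 1.92 to 4.01 CPM, below the 8.51 to 13.6 CPM of null replicate 1. The gap between libraries of the same genotype was therefore beyond counting error, which is all that these intervals cover.

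Cntnap2 (ENSMUSG00000039419, chromosome 6, 45060061 to 47304213) was at 51.6, 21.9 and 62.3 CPM in wild type and at 54.2, 21.4 and 72.5 CPM in null replicates. The libraries numbered 2 were nearly equal in the 2 genotypes and far below the rest. By edgeR the difference was 0.14 (SE 0.56, adjusted p = 0.997) on the log2 scale, and 0.12 (SE 0.09, adjusted p = 0.512) with the block, where the 95% interval narrowed from between -1.28 and 1.56 to between -0.06 and 0.30. The pseudogene Rbpsuh-rs3 lies within Cntnap2 on the opposite strand, with 1473 counts over the 6 libraries against 2638 for Cntnap2. Cntnap4 (ENSMUSG00000031772, chromosome 8, 112570043 to 112882717), a gene known from interneurons, had 6.08, 1.65 and 6.05 CPM in wild type and 8.06, 2.28 and 5.73 CPM in null replicates. With 18 counts in wild type replicate 2, that value has a 95% exact Poisson interval of 0.977 to 2.61 CPM. For Cntnap4 edgeR gave 0.22 (SE 0.59, adjusted p = 0.993), and 0.24 (adjusted p = 0.652) with the block.

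A two-sided exact permutation test of each member's log2 CPM gave p from 0.5 to 0.8, where the smallest p that 3 against 3 libraries allow is 0.1. Without the block, the 95% interval of 8 of 9 members ran past 0.5 on the log2 scale on both sides of 0, Nlgn2 being the exception, so a p that missed the threshold does not show equal levels. With both libraries numbered 2 left out and no block, a setting chosen after seeing the data, edgeR called 0 of 9 members. Their log2 fold changes then ran from -0.28 for Cntn2 to 0.26 for Nlgn1, with adjusted p from 0.595 for Nrxn2 to 0.998 for Nlgn3, and Nrxn3 changed sign to 0.05.

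**Figure D3:**
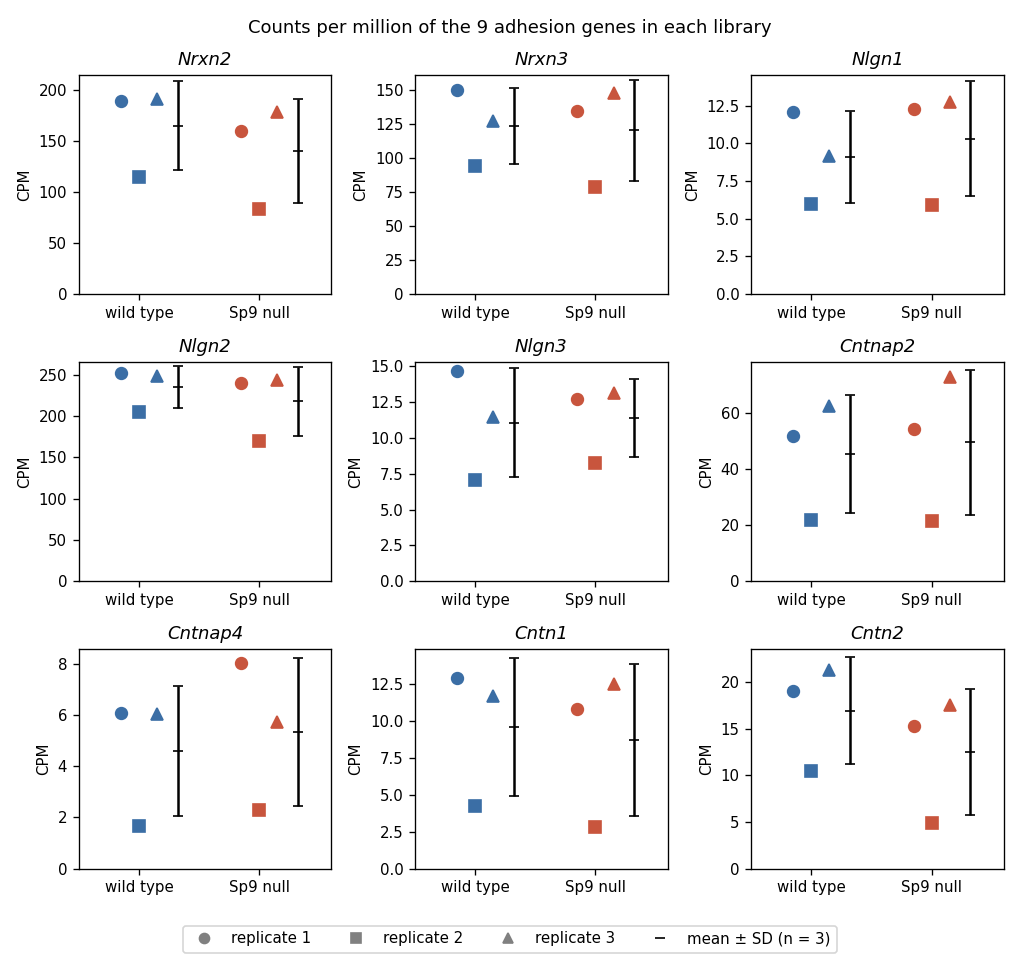
CPM of each member in each library, with axes from 0; circles, squares and triangles are replicates 1, 2 and 3, and the black bars give the mean ± SD of 3 libraries. In all 9 panels the wild type and null points overlap and the square of replicate 2 is the lowest of its genotype.

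**Figure D4:**
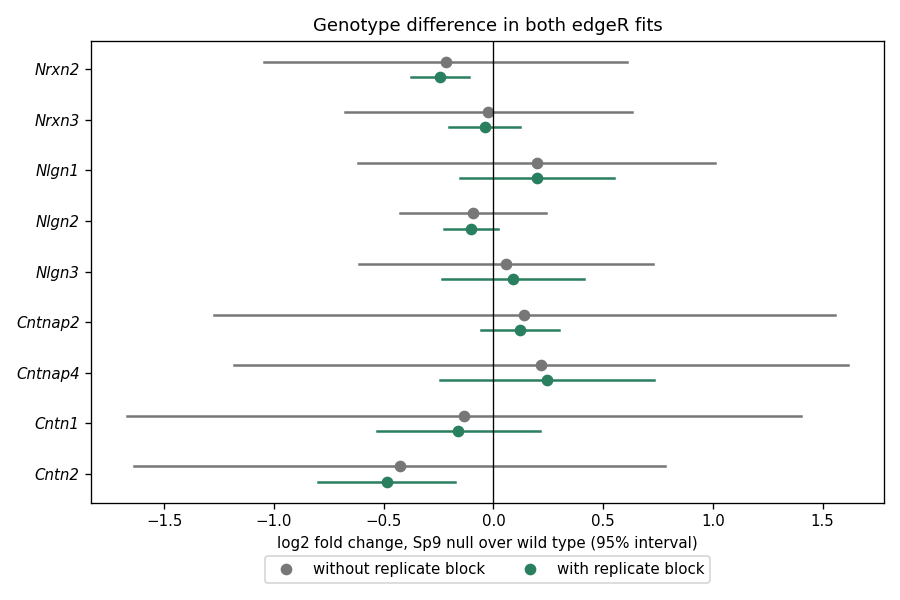
Log2 fold change of Sp9 null over wild type with its 95% interval for the 9 members, without (grey) and with (green) the replicate block. All 9 grey member intervals cross 0, and with the block those of Nrxn2 and Cntn2 do not.

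The clearest regularity among the members was their level in the libraries numbered 2. In 9 of 9 members both of these libraries were below all 4 others, which was so for 21.9% of tested genes. Replicate 2 stood at 27.2% to 82.2% of the mean of replicates 1 and 3 in wild type, with a median of 53.9%, and at 24.2% to 70.3% in null libraries, with a median of 47.3%. Over all tested genes the medians were 99.6% and 97.5%.

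The contactin and Cntnap genes were lowest in that comparison, and the neuroligin Nlgn2 the least affected. Cntnap4 stood at 27.2% in wild type and 33.0% in null libraries, Cntn1 at 34.3% and 24.2%, and Cntnap2 at 38.4% and 33.8%. Cntn2 stood at 51.9% in wild type and 29.5% in null libraries. Nrxn2 and Nrxn3 were at 60.5% and 68.1% in wild type and at 49.1% and 55.5% in null libraries. Nlgn3 was at 53.9% and 64.0%, only just above Cntn2 in wild type, and Nlgn1 at 56.1% and 47.3%. Nlgn2 was at 82.2% and 70.3%.

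Markers of neurons moved the same way and markers of progenitors did not. Of 10 pan-neuronal genes, 10 were lowest in replicate 2 of both genotypes, against 28.4% of all tested genes. The summed level of the 10 was 2917 and 2440 CPM in wild type and null replicate 2 against 3870 to 4333 CPM in the other 4 libraries. Their sum ranged from 2917 to 4185 CPM over wild type and from 2440 to 4333 CPM over null libraries. Of 8 radial glia genes 1 was lowest there, and their sum was 2891 and 2730 CPM in replicate 2 against 2029 to 2391 CPM elsewhere, with ranges of 2239 to 2891 CPM in wild type and 2029 to 2730 CPM in null libraries. The 8 MGE genes summed to 3547 to 3693 CPM in wild type and 4117 to 4259 CPM in null libraries, and in replicate 2 to 100% and 96.7% of the other libraries of the genotype. Within that sum 4 of the 8, Lhx6, Lhx8, Gad1 and Gad2, were lowest in replicate 2 of both genotypes. Lhx8, a transcription factor gene of MGE-derived neurons, had 205, 136 and 211 CPM in wild type and 184, 75.9 and 226 CPM in null replicates. Of 7 tested genes of the lateral ganglionic eminence and striatum, 4 were lowest in replicate 2 of both genotypes. The sum of that list in replicate 2 was 93.6% and 108% of the other libraries of the genotype.

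The summed markers of the neighbouring cortex were also low in replicate 2, though only 2 of the 8, Tbr1 and Eomes, passed the filter. Both were lowest in replicate 2 of both genotypes. Slc17a7, at 3 to 8 counts, was not, and Neurod2 and Neurod6 were not in null libraries. Emx1, Neurod2 and Neurod6 had at most 6, 5 and 1 counts in any library. The 8 pallial genes summed to 1.65 and 1.91 CPM in replicate 2 of wild type and null, against 18.5 to 48.6 CPM in the other libraries. Tbr1, a transcription factor gene of cortical excitatory neurons, was most of the sum in those other libraries, at 14.8 to 41.9 CPM, and stood at 0.641 and 0.0911 CPM in replicate 2. The 7 hypothalamic and diencephalic genes summed to 6.23 and 3.28 CPM there and to 16.1 to 32.6 CPM elsewhere. Of these 7, 3 passed the filter, Otp, Lhx5 and Lhx9, and were lowest in replicate 2 of both genotypes. Pomc, at 4 to 9 counts, and Sim2, at 1 to 8 counts, were not lowest in wild type replicate 2. Nr5a1 had at most 1 count in any library. No marker of these lists was at 0 in all 6 libraries. Compared within wild type and within null libraries, the pallial sums were 1.65 to 24.2 and 1.91 to 48.6 CPM. The part of neuronal and neighbouring-tissue content in the members' levels was not tested. In bulk tissue, fewer cells of a type and less RNA per cell cannot be told apart.

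**Figure D5:**
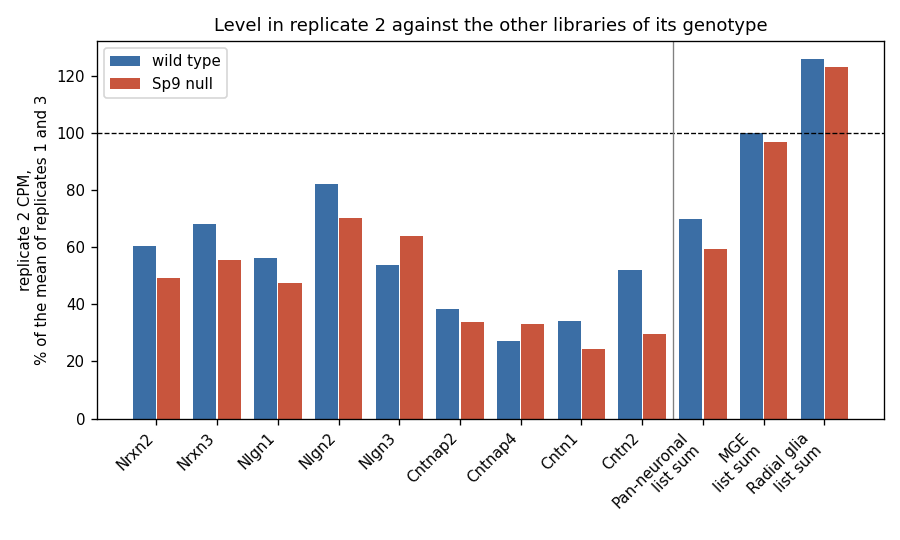
Bars give the CPM of replicate 2 as a percent of the mean of replicates 1 and 3, for wild type (blue) and Sp9 null (red), for the 9 members and for the summed pan-neuronal, MGE and radial glia lists; the dashed line is 100%. All member bars lie between 24.2% and 82.2%, the pan-neuronal sum at 70.0% and 59.5%, and the radial glia sum at 126% and 123%.

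For the members at 10 CPM or more, the tested gene outside the lists whose TMM-scaled log2 CPM ran most alike over the 6 libraries was named by Pearson's r as a description. These were 4931428F04Rik for Nrxn2, Unc5c for Nrxn3, Rusc1 for Nlgn2, Cacna1b for Nlgn3, Tubb4a for Cntnap2 and Mfhas1 for Cntn2, with r from 0.997 to 0.999. Tubb4a, a neuronal tubulin gene, had 116, 55.8 and 126 CPM in wild type and 115, 55.3 and 145 CPM in null replicates. The likeness is not particular to a pair, because 639 to 1347 of the 14792 genes compared had r over 0.9 with a member, and all share the 6 libraries and the low replicate 2.

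The wider adhesion machinery was read from 5 lists with 80 genes, of which 75 passed the filter. Without the block edgeR called 0 of the 75, with 0 at an unadjusted p under 0.05, and DESeq2 on genotype alone and limma also called 0. With both libraries numbered 2 left out and no block, edgeR called 1 of the 75, Lin7a, against 89 of 15069 genes tested in that setting. Of the 75, 11 had an unadjusted p under 0.05 there. The share over all genes in that setting was not taken, so this count cannot be read as an excess. With the block 6 rose and 1 fell, or 9.33% of the list genes against 4.00% of all tested genes, which were 2.22% higher and 1.78% lower. Of the 75 genes, 61 were lowest in replicate 2 of both genotypes (81.3%, against 28.4% of all tested genes). Leaving out pair 1, 2 or 3 gave 13, 2 and 3 blocked calls among the 75. Over all genes the same settings gave 1193 of 15118, 126 of 15069 and 219 of 15060, so both counts depend on each pair.

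Of 8 tested paralogues of the members, 0 passed in either edgeR fit, and the unblocked fit gave 0 with an unadjusted p under 0.05 where the blocked fit gave 1, Cntnap5a, named here after its values were seen. The 3 most abundant, Cntnap3, Cntnap1 and Cntnap5c, were at 0.995, 0.496 and 0.488 FPKM on average, and Cntn4 did not pass the filter.

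Of 19 tested extracellular partners and regulators, 2 rose with the block. These were Adgrl2 and Adgrl3, which encode latrophilins, adhesion receptors that bind teneurins and FLRT proteins and, for some members, neurexins. Adgrl2 was at 173, 126 and 187 CPM in wild type and 183, 142 and 236 CPM in null replicates, and rose by 0.22 with the block (adjusted p = 0.0398, edgeR). Adgrl3 rose by 0.37 (adjusted p = 0.0335). Neither call held without pair 2 or pair 3, nor in the blocked DESeq2 fit, where the values were 0.22 and 0.37. The most abundant genes of this list, Clstn1, Adgrl1 and Dag1, were at 27.8, 17.3 and 7.58 FPKM and had blocked log2 fold changes of 0.04, -0.03 and -0.01.

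Among 18 tested other synaptic organisers Cadm1, an immunoglobulin-like adhesion gene, rose by 0.28 with the block (edgeR adjusted p = 0.00896), from 94.1 ± 16.6 to 114 ± 27.8 CPM (SD, n = 3 each). The receptor phosphatase gene Ptprs was the most abundant of that list, at 136 FPKM, with a blocked log2 fold change of 0.10 (adjusted p = 0.387), followed by Cadm4 at 54.7 and Lrrc4b at 36.4 FPKM, with blocked values of -0.09 and -0.13 that did not pass. Of 8 L1 family genes and contactin partners, Nrcam and the phosphatase gene Ptprg, whose product binds contactins, rose by 0.30 (adjusted p = 0.00831) and 0.26 (adjusted p = 0.0383). Ptprz1 and Ncam1, the most abundant there at 41.2 and 18.3 FPKM, had blocked values of 0.15 and 0.11 and did not pass. The calls of Cadm1 and Ptprg were not made without pair 2 or pair 3 or in the blocked DESeq2 fit, and that of Nrcam not without pair 3 or in that fit. Without pair 2 the value was 0.32 for Cadm1 and 0.25 for Ptprg, and in blocked DESeq2 it was 0.29 for Cadm1, 0.27 for Ptprg and 0.31 for Nrcam. Without pair 3 they were 0.22, 0.19 and 0.21 for Cadm1, Ptprg and Nrcam.

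Of 22 intracellular scaffold genes, Lin7a rose and Dlg4 fell with the block. Lin7a, which encodes a PDZ protein that joins the neurexin-binding kinase CASK, had 18.0, 3.12 and 20.1 CPM in wild type and 29.4, 4.10 and 38.5 CPM in null replicates. With the block it rose by 0.78 (SE 0.14, adjusted p = 0.000301, edgeR), and it lost its call only without pair 3 among the left-out pairs (0.62, adjusted p = 0.189). It was also called by blocked DESeq2 (0.76, adjusted p = 0.0327) and, with no block, once both libraries numbered 2 were left out (0.86, edgeR adjusted p = 0.0330). Replicate 2 was so much lower than the others that wild type and null ranges overlapped widely. Dlg4, encoding the neuroligin-binding scaffold PSD-95, had 149, 93.8 and 155 CPM in wild type and 126, 70.1 and 139 CPM in null replicates. It fell by 0.24 (SE 0.07, adjusted p = 0.0252), was not called without pair 2 or pair 3 or in the blocked DESeq2 fit, and its CPM were lower in all 3 pairs, as were those of Nrxn2. Lin7c and Apba2, at 41.8 and 13.9 FPKM, had blocked values of 0.16 and 0.19 and did not pass.

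Marker lists were read by genotype as well. Of the 8 MGE genes, Dlx1 was called without the block, at 0.69 (edgeR adjusted p = 0.034). With the block Dlx1, Dlx2 and Gad2 rose, by 0.69, 0.39 and 0.37, and Lhx6 and Gad1 fell, by 0.45 and 0.80. Of 7 tested genes of the lateral ganglionic eminence and striatum, 3 rose with the block, Six3 by 0.46, Foxp1 by 0.33 and Meis2 by 0.24. The radial glia, hypothalamic and diencephalic, and endothelial lists had 0 calls in either fit. With the block 1 of 10 pan-neuronal genes rose and 1 fell, Elavl4 by 0.32 and Tubb3 by 0.40. Tubb3, a neuronal tubulin gene, had 1010, 752 and 1010 CPM in wild type and 837, 491 and 775 CPM in null replicates. Of the 2 tested pallial genes Tbr1 rose by 0.81 with the block (edgeR adjusted p = 0.0238), but not without it (edgeR adjusted p = 0.977). In pair 2 Tbr1 was lower in null, at 0.0911 against 0.641 CPM, from 1 and 7 counts. Of 6 tested microglia genes 5 fell with the block, and the list summed to 29.8 to 34.0 CPM in wild type and to 8.48 to 12.9 CPM in null libraries. Without the block edgeR called 0 genes of the microglia, striatal, pan-neuronal and pallial lists. Over all tested genes, 2.22% were called higher and 1.78% lower with the block. The marker calls were not read with a pair left out or in DESeq2. Itgam, a defining microglia marker, had at most 1 count in any library. The part of these differences in the blocked values of Nrxn2 and the partner genes was not tested.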

How the data were processed

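Total RNA of dissected MGE tissue was sequenced in 6 libraries, 3 per genotype. Per the file headers, the deposited table holds a read count and an FPKM value per gene and library. TopHat, Cufflinks 2.1.1 and GRCm38.p4 appear in the submitters' processing notes without a role, and the counting program and strandedness are not given in the sources used here. For 21180 of 21180 genes counted in 2 or more libraries the deposited FPKM equalled the count over 1 fixed length and the library total, within a relative tolerance of 0.001. The number of unused sample columns was 0.

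Counts were tested in R 4.3.3 with edgeR 4.0.16 (quasi-likelihood test, TMM scaling, default expression filter, robust dispersion, two-sided), with Benjamini-Hochberg adjustment over 14929 genes and calls under 0.05. Standard errors were derived from the F statistic, and intervals use the moderated degrees of freedom. Alternatives were DESeq2 1.42.0, limma 3.58.1 on log2(FPKM + 1) and log2(FPKM + 0.1), RLE scaling, no filter and left-out libraries. The code was tested on simulated data.

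Wild type and null libraries share the numbers 1 to 3. Their deviations from the mean of their genotype correlated by 0.336, 0.729 and 0.535 between libraries of the same number, all over 0.1, so the numbers were read as pairs. Wild type 1 and null 3 correlated by 0.354 and wild type 3 and null 1 by 0.230, also over 0.1. The rule therefore did not tell numbers 1 and 3 apart, and no fit with these numbers exchanged was run. The pairing comes from the same data that the blocked fits test, as the labels do not say what a number marks. The blocked values and the counts over numbered pairs assume it.

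Named genes were the members, the partner genes called in either fit, the 3 highest by FPKM in each list and the gene most like each member at 10 CPM or more, plus marker genes and Cntnap5a. One gene of the lists is not reported here. The members and lists were chosen with earlier results of these data known.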

Additional observations from a re-analysis of the deposited data

How the results depend on the processing

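No member was called in any unblocked fit tried. The count of members called was 1 with the replicate block and 0 to 2 with the block and 1 pair left out (2, 0 and 1 without pair 1, 2 and 3). The count of all genes called was 22 without and 597 with the replicate block, where it was 1193, 126 and 219 without pair 1, 2 and 3. It was 84 with DESeq2 on genotype only, 163 with DESeq2 and the block, 65 without the expression filter, 36 and 38 with limma on log2(FPKM + 1) and log2(FPKM + 0.1), and 2 to 34 with 1 library left out, lowest without wild type replicate 1 and highest without null replicate 2. Without both libraries numbered 2, an alternative added after seeing the data, it was 89, with 0 members called.

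Uncalled directions depended on which library was left out, and the cause was not tested. With 1 library left out, the log2 fold change ran from -0.44 to 0.050 for Nrxn2, -0.21 to 0.21 for Nrxn3, -0.030 to 0.48 for Nlgn1, -0.19 to 0.052 for Nlgn2, -0.18 to 0.31 for Nlgn3, -0.26 to 0.51 for Cntnap2, -0.19 to 0.60 for Cntnap4 and -0.52 to 0.31 for Cntn1, and so crossed 0 in each. It ran from -0.042 to 0.72 for Adgrl3 and -0.43 to 0.018 for Dlg4. Nrxn3 also changed sign with the block without pair 1 (0.020) or pair 2 (0.050), and without both libraries numbered 2 (0.047). Cntn2 was negative in all alternatives run.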
